A study of Mus musculus with 3 samples.

Results

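Small nucleolar RNAs (snoRNAs) were examined in 3 sorted populations of mouse CD8+ T cells, as genes whose symbol begins with Snora or Snord followed by a number. Among probe sets that the platform annotation pairs with a single symbol, 56 genes matched, of 10191 genes in all. They divide into 22 box H/ACA genes (Snora) and 34 box C/D genes (Snord). RefSeq lists 55 of the 56 as snoRNA and 1, Snord73b, as snRNA, and each gene was read by a single probe set. The genes were chosen with their behaviour on these same arrays already known, so the values below describe them and test nothing.

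The populations were innate cells positive for CXCR3, innate cells negative for it, and naive cells. CXCR3 is a chemokine receptor of effector and memory T cells. All 3 populations were sorted out of splenic and lymph node suspensions, and every donor mouse was a CXCR3-GFP reporter on C57BL/6, described as naive, housed free of pathogens and called a CIBER mouse in one protocol. The cells were stained for CD44, CD8 and a further surface marker before sorting, RNA came from some 3 to 5 mice without a statement on how they were pooled, and no age is given in the sources used here. Each population was measured on 1 array, so each difference lacks a replicate check, and no test, standard error or p-value could be computed. Where a gene is said to read 3 values, they stand in the order CXCR3+ innate, CXCR3- innate, naive. Innate is the submitters' name for the CD8+ cells set apart from naive ones. Because RNA of many cells was pooled, fewer cells that make an RNA and less of that RNA per cell cannot be told apart.

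snoRNAs are short, stable RNAs of the nucleolus that pair with ribosomal RNA precursors. Box H/ACA members guide the conversion of uridine to pseudouridine by dyskerin (Dkc1), and box C/D members guide methylation of the ribose by fibrillarin (Fbl). Some of either class act in cleavage of the precursor instead. Most mammalian snoRNAs are cut from introns of other genes, their hosts, and many hosts encode ribosomal proteins or nucleolar proteins, or make a spliced transcript that codes for no known protein. Resting T cells build few ribosomes, and ribosome production rises when they are activated.

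Values are log2 RMA values, on which a difference of 1 is 2-fold. In that order the medians over all genes were 7.63, 7.63 and 7.65, and the standard deviations over genes were 0.78, 0.75 and 0.82, so the CXCR3- innate array had the narrowest spread. The 6 CD8 T cell markers all had values, with Cd8b1 at 11.31, 11.29 and 11.54. All 6 were lower in CXCR3- innate than in naive cells, with a median of -0.41. Of the genes behind the sort, Cxcr3 read 7.97, 7.82 and 7.57 and Cd44 read 8.30, 7.88 and 7.24. Cxcr3 thus differed by 0.15 between the innate arrays. None of 6 B cell and none of 3 red cell markers was among the genes with values, and 2 of 6 myeloid, 2 of 4 natural killer, 1 of 3 CD4 and 1 of 3 plasma cell markers were. Every listed probe set reached 7 on at least 1 array, so a gene without a value is not a gene at 0. Exactly equal values on all 3 arrays were found in 34.6% of all genes but in 4 of the 56 snoRNA genes (7.14%), namely Snora47, Snord88a, Snord118 and Snord123.

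CXCR3- innate cells had the lowest value of the 3 populations for most snoRNAs. That array was alone at the bottom for 45 of 56 genes (80.4%), against 20.7% of all genes. CXCR3+ innate cells were alone at the bottom for 1 snoRNA gene and naive cells for 2. The top place was divided, with naive cells alone at the top for 24 genes and CXCR3+ innate cells for 22. The median snoRNA value was 9.57 for CXCR3+ innate, 8.97 for CXCR3- innate and 9.33 for naive cells. The order with CXCR3- innate lowest, naive in the middle and CXCR3+ innate highest was found in 21 of 56 snoRNA genes (37.5%) and in 3.24% of all genes. The order with CXCR3- innate lowest and naive highest was found in another 21 snoRNA genes (37.5%) and in 12.5% of all genes. Among genes with a mean value of at least 9, these orders were found in 9.71% and 37.3%. The snoRNA shares are over all 56 genes, of which 27 had a mean under 9, so these sets differ in level.

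**Figure D1:**
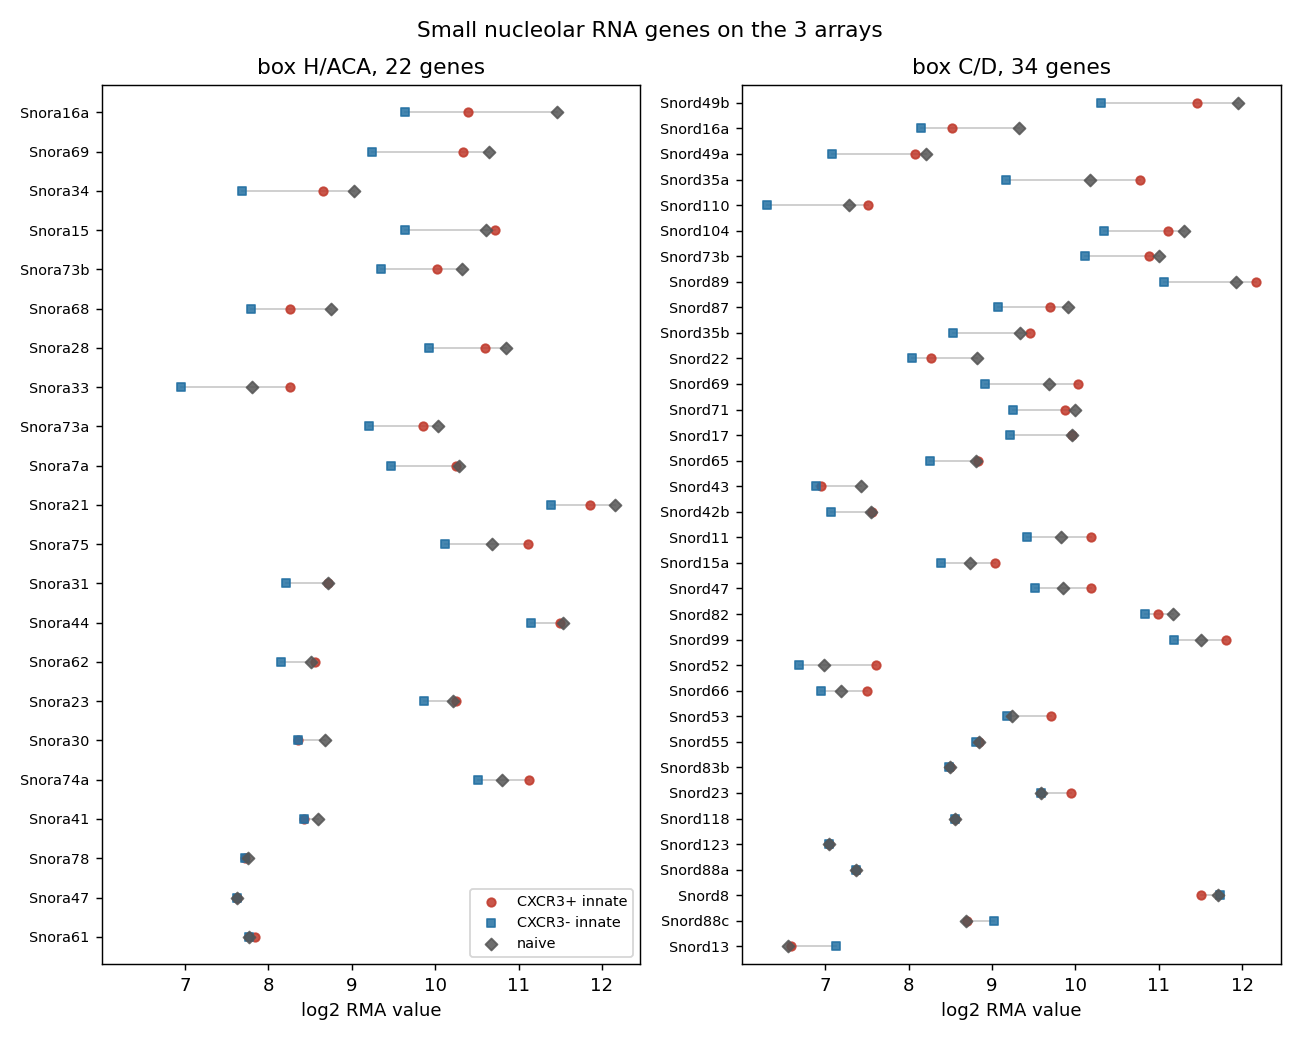
Log2 RMA value (horizontal axis) of each of the 22 box H/ACA and 34 box C/D genes, 1 row per gene, sorted by CXCR3- innate minus naive with the most negative difference on top; red circles are CXCR3+ innate, blue squares CXCR3- innate and grey diamonds naive cells, 1 array each, and the line spans the 3 values. The blue squares lie leftmost in 45 of the 56 rows, and in the lowest rows the 3 marks fall together or the blue square lies to the right.

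Many snoRNA probe sets were bright, and bright genes in general read lower on the CXCR3- innate array. Of the 834 genes with a mean of at least 9 over the arrays, 51.7% had CXCR3- innate alone at the bottom. Their median difference from naive was -0.20, with 74.3% below 0. The 29 snoRNA genes at that level had a median of -0.77, with 28 of 29 below 0. The 27 snoRNA genes under a mean of 9 had a median of -0.33, with 20 below 0. All 9357 genes under that level had a median of 0.00, with 32.9% below 0.

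The first comparison set CXCR3- innate against naive cells. Of the 56 snoRNA genes, 48 had a lower value in CXCR3- innate cells, 5 an equal one and 3 a higher one. Of all genes, 36.3% were lower and 21.6% higher. Of the genes with a mean of at least 9, 74.3% were lower and 17.4% higher. The median was -0.52 over all snoRNA genes, -0.67 over the box H/ACA genes and -0.44 over the box C/D genes, and 0.00 over all genes. A gene was counted as called when its values differed at least 2-fold and the higher one reached the median of its array. By that rule 7 snoRNA genes were lower and none was higher. The rule called 23 of 10191 genes lower (0.226%) and 2 higher (0.0196%), and of the 834 genes with a mean of at least 9 it called 12 lower (1.44%). Since the snoRNA genes were picked with this difference known, their share of 12.5% supports no conclusion about them. Of 11 other short RNAs measured, 7 were called lower in the same comparison, and the median over the 11 was -1.05. The 7 were Rnu12, Rny3, Terc, Scarna2, Scarna6, Scarna17 and Rnu3a, which is itself a box C/D snoRNA, U3. The Scarna genes make guide RNAs of Cajal bodies, so the 7 are not a set apart from guide RNAs. Rnu11, Rn7sk, Rpph1 and Scarna8 were not called. The spliceosomal RNAs Rnu12 and Rnu11 were at -1.61 and 0.00. The 139 microRNA hairpin genes had a median of 0.06. The RNA was purified on RNeasy columns, whose standard protocol recovers short RNAs poorly. The part of RNA recovery, of the narrower spread of the CXCR3- innate array and of the level of the T cell markers in these differences was not tested.

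Among box H/ACA genes, Snora16a read 10.39, 9.63 and 11.46. Its CXCR3- innate value was 3.55-fold below naive, and it was the snoRNA with the largest difference in this comparison. Snora69 read 10.33, 9.25 and 10.65, which placed CXCR3- innate 2.65-fold below naive. Snora34 read 8.66, 7.69 and 9.03, a 2.53-fold difference. In all 3 genes naive cells were highest and CXCR3- innate cells lowest. Snora15 at -0.97, Snora73b and Snora68 at -0.96 stayed just short of 2-fold. Snora73a and Snora73b are near-identical copies of the U17 snoRNA, which takes part in cleavage of the precursor on the small-subunit side. Snora73a read 9.85, 9.21 and 10.03 and Snora73b 10.02, 9.35 and 10.32, and how far the probes of one also read the other was not tested. Of the 22 box H/ACA genes, 20 were below 0, Snora47 and Snora61 were equal, and none was above 0.

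Among box C/D genes, Snord49b read 11.45, 10.30 and 11.95, 3.13-fold lower in CXCR3- innate than in naive cells. Its relative Snord49a read 8.08, 7.08 and 8.20, a 2.18-fold difference, so both Snord49 genes were lowest in CXCR3- innate cells. Snord16a, the U16 snoRNA, read 8.52, 8.15 and 9.32, which placed both innate populations below naive. Snord35a, one of several snoRNAs in introns of the ribosomal protein gene Rpl13a, read 10.77, 9.17 and 10.18. It was 2.01-fold lower in CXCR3- innate than in naive cells and was highest in CXCR3+ innate cells. Under other scalings Snord35a stayed short of 2-fold, at -0.84 after quantile normalization, -0.95 after cyclic loess and -0.99 both with arrays centred and with an offset on the linear scale. Just outside the threshold lay Snord110, with 7.51, 6.30 and 7.29 and a difference of -0.99, and Snord104 followed at -0.96. Of the 34 box C/D genes, 28 were below 0, 3 were equal and 3 were above 0.

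Some box C/D genes were equal or higher in CXCR3- innate cells. Snord118 is the U8 snoRNA, which acts in processing of the large-subunit precursor, and it read 8.55 on each array. Snord13 is the U13 snoRNA, which pairs with small-subunit ribosomal RNA and is needed for its acetylation. It read 6.59, 7.13 and 6.55, a difference of 0.58 that was the highest of all 56 genes in CXCR3- innate minus naive. Each value was under the median of its array. Snord13 reached 7, as every listed probe set does on some array, only in CXCR3- innate cells. It was thus listed through the array where it was highest, and its difference supports no conclusion. The third gene inside no other RefSeq gene, Snord89, read 12.17, 11.06 and 11.92 and so had a difference of -0.86. Snord88c, at 8.70, 9.03 and 8.69, and Snord8, at 11.51, 11.73 and 11.71, were the other genes above 0. Snord8 was the only snoRNA gene with CXCR3+ innate cells alone at the bottom. The U3 snoRNA, a box C/D RNA essential for small-subunit processing, is filed under the symbol Rnu3a and so was not among the 56. Rnu3a read 9.03, 8.43 and 9.47, a difference of -1.05 between CXCR3- innate and naive cells.

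The members not yet described lay between these ends. Snora28, whose host Eif5 encodes a translation initiation factor, read 10.60, 9.93 and 10.85, and Snora21, inside the ribosomal protein gene Rpl23, read 11.86, 11.38 and 12.16. Snora74a, a relative of the U19 snoRNA, read 11.12, 10.51 and 10.81, and was highest in CXCR3+ innate cells. Snora31, Snora62 and Snora23 were at -0.50, -0.36 and -0.36 in CXCR3- innate minus naive. In these 6 genes CXCR3- innate cells were lowest. Snora30 and Snora41 had the same value in both innate populations and were below naive by 0.33 and 0.18, and Snora78 lay within 0.04 on all arrays.

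Among the remaining box C/D genes, Snord73b was at -0.89 in CXCR3- innate minus naive and Snord17, at 221 bases the longest of the 34, read 9.95, 9.22 and 9.96. Snord87 and Snord71 were at -0.85 and -0.74 in that comparison. These 4 had naive values at or just above those of CXCR3+ innate cells. Snord11, from an intron of the C/D core protein gene Nop58, read 10.19, 9.42 and 9.83, and Snord15a, inside Rps3, read 9.03, 8.39 and 8.74, with CXCR3+ innate highest in both. Snord42b and Snord66 were at -0.48 and -0.24. For Snord53 and Snord23 both CXCR3- innate and naive cells stood below CXCR3+ innate cells, with 9.70, 9.18 and 9.23 for Snord53 and 9.94, 9.58 and 9.59 for Snord23. Snord55 and Snord83b, both inside ribosomal protein genes, were at -0.03 and -0.02 and had equal values in CXCR3+ innate and naive cells.

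The second comparison set CXCR3+ innate against naive cells and shares the naive array with the first. Here the snoRNAs lay on both sides. Of 56 genes, 25 were below 0, 7 equal and 24 above 0, and the median was 0.00, which took values up to 0.05 under other scalings. Of all genes, 34.2% were below 0 and 20.7% above. Genes with a mean of at least 9 had 66.1% below 0 and 21.9% above, with a median of -0.10. For the snoRNA classes the medians were as follows. The median was -0.04 over box H/ACA and 0.00 over box C/D genes. Snora16a, at -1.07, was the 1 snoRNA gene called lower, and none was called higher. Over all genes 10 were called lower (0.0981%) and 14 higher (0.137%), and of those with a mean of at least 9, 1 was lower (0.12%) and 3 higher (0.36%). Snord16a followed at -0.80, Snord22, the U22 snoRNA of small-subunit processing, at -0.55, Snord49b at -0.50, Snora68 at -0.49 and Snord43 at -0.48. Snora34 was at -0.37 and Snora30 at -0.33. On the other side stood Snord52 at 0.63, from 7.61, 6.69 and 6.98. Its highest value was under the median of its array. Snord52 reached 7 only on the CXCR3+ innate array and Snord43 only on the naive array. Each was thus listed through the array where it was highest, and these differences support no conclusion. Snord35a was at 0.59, Snora33 at 0.46 and Snora75, from an intron of the nucleolin gene, at 0.43.

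**Figure D2:**
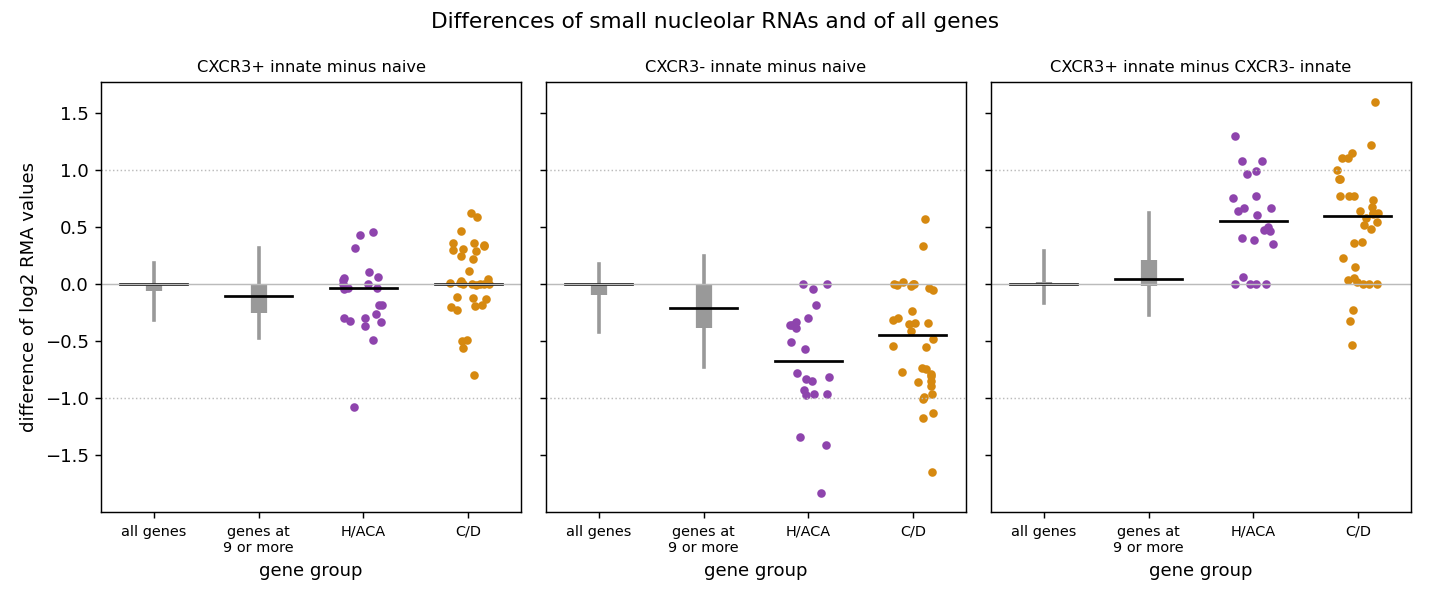
Difference of log2 RMA values (vertical axis) in the 3 comparisons for all 10191 genes and for the 834 genes with a mean of at least 9, drawn as the range from the 5th to the 95th percentile with the middle 50% as a thick bar, and for each box H/ACA (purple) and box C/D (orange) gene as a point; black lines are medians and dotted lines mark 2-fold. The snoRNA medians are -0.67 and -0.44 in the middle panel and 0.56 and 0.60 in the right panel.

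The third comparison set CXCR3+ innate against CXCR3- innate cells and shares an array with each of the others. CXCR3+ innate cells had the higher value for 46 of 56 snoRNA genes, an equal one for 7 and a lower one for 3. Over all genes 28.7% were higher and 22.3% lower. Of the genes with a mean of at least 9, 58% were higher and 26.7% lower. The medians were 0.56 for box H/ACA and 0.60 for box C/D genes, beside 0.00 for all genes and 0.04 for genes with a mean of at least 9. By the size rule 8 snoRNA genes were higher and none was lower. The rule called 15 of all genes higher (0.147%) and 1 lower (0.00981%), and 11 of those with a mean of at least 9 were higher (1.32%). The 8 snoRNA genes were again chosen with this contrast known.

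Snord35a had the largest difference, 3.03-fold, from the values given above. Snora33 read 8.26, 6.96 and 7.80, which was 2.47-fold between the innate populations. Snord49b was 2.22-fold higher in CXCR3+ innate cells. Snord69 read 10.03, 8.92 and 9.69 and was 2.16-fold higher, and Snord89 was 2.15-fold higher. Snora15 read 10.72, 9.64 and 10.61 and was 2.12-fold higher, as was Snora69. For Snora15, Snora33, Snord35a, Snord69 and Snord89 the CXCR3+ innate value was also above naive, by 0.11, 0.46, 0.59, 0.34 and 0.24. For Snora69, Snord49a and Snord49b it was below naive.

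Snord49a passed narrowly, at 1.001, and fell short after cyclic loess, with centred arrays and with the offset. Snora15, Snora69 and Snord49b fell short after quantile normalization. Just outside the threshold lay Snora75 at 0.99, Snora34 at 0.97 and Snord35b at 0.93. Snord110 differed by 1.22 but its higher value of 7.51 was under the median of its array. Snora7a, in the ribosomal protein gene Rpl32, differed by 0.77. The members that read lower in CXCR3+ innate cells were Snord13 at -0.53, Snord88c at -0.32 and Snord8 at -0.22.

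The classes overlapped in every comparison. Between the innate populations box H/ACA differences ran from 0.00 to 1.30 and box C/D differences from -0.53 to 1.60. In CXCR3- innate minus naive they ran from -1.83 to 0.00 and from -1.65 to 0.58. RefSeq lengths differed, with a median of 122 bases for H/ACA genes and 72.5 for C/D genes. Over all 56 genes the rank correlation of length with the CXCR3- innate minus naive difference was -0.07. The rank correlation with mean level was -0.30. These correlations are across genes read on the same arrays and are given as a description.

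snoRNAs were next set beside their hosts. A host was taken as any RefSeq gene whose span holds the snoRNA, by the GRCm38.p6 table. The strand of the snoRNAs was not given in that table. Of the 56 genes, 48 lay in 1 other gene, 5 in a pair of genes and 3 in none. 16 lay in genes of cytosolic ribosomal proteins, and all 16 had a CXCR3- innate value below naive, with a median of -0.79. Another 16 lay in noncoding hosts, counting Gas5 and Snhg6, which overlap coding genes, and leaving out 3 genes held by other overlapping pairs, with a median of -0.67 and 14 below 0. The 9 ribosomal protein hosts that had values of their own had a median of -0.33, with 8 below 0. Of the 41 snoRNA genes with a measured host, 39 were paired with it, from 31 host genes. Snord87, which Mcmdc2 also spans, was paired with Snhg6. Snord71 and Snord8, which a second gene also spans, were left out. In CXCR3- innate minus naive Snord87 was at -0.85 and Snhg6 at -0.30. Snord71 was at -0.74 and its host Ap1g1 at -0.06, and Snord8 was at 0.02 and Chd8 at -0.12. In CXCR3- innate minus naive the snoRNA median over these pairs was -0.50 and the host median -0.31, and the snoRNA had the lower difference in 25 pairs, the host in 13. Between the innate populations the medians were 0.61 and 0.23, and the snoRNA had the higher difference in 31 of 39 pairs. Pearson's r across the pairs was 0.17 and 0.23 in these comparisons. Pairs share arrays and several share a host, so r is only a description.

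**Figure D3:**
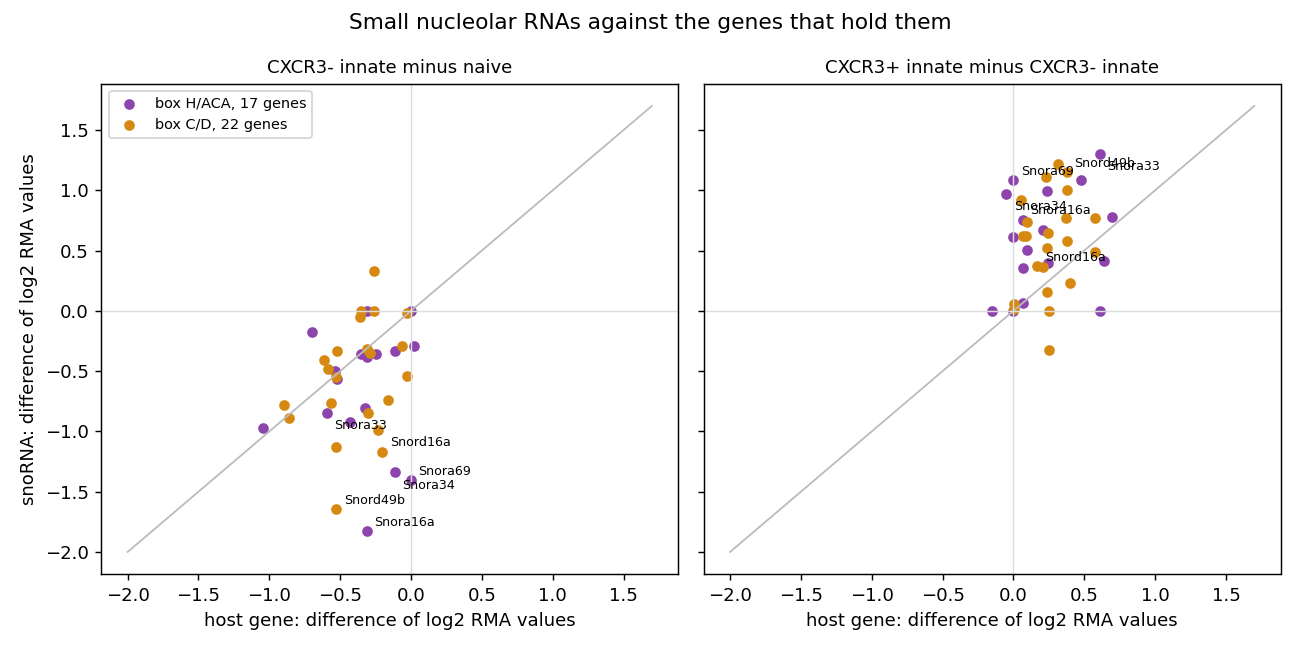
Difference of log2 RMA values of each snoRNA (vertical axis) against that of the gene that holds it (horizontal axis) for 39 pairs in CXCR3- innate minus naive (left) and CXCR3+ innate minus CXCR3- innate (right); purple points are box H/ACA, orange points box C/D, and the grey diagonal marks equal differences. In the left panel 25 points lie under the diagonal, and in the right panel 31 lie above it.

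The snoRNAs called in CXCR3- innate minus naive cells had hosts with smaller differences where the host was measured. Rpl39, the ribosomal protein gene that holds Snora69, had an equal value of 7.36 on all arrays. That value was under the array medians, so this probe set may be too dim to show a change. Kansl2, a subunit gene of a histone acetyltransferase complex that holds Snora34, read 7.68, 7.72 and 7.84, a difference of -0.11. Rpl4, the host of Snord16a, differed by -0.20. The noncoding host 2410006H16Rik of both Snord49 genes read 8.76, 8.38 and 8.91 and differed by -0.53. Snhg12, the noncoding host of Snora16a, read 6.95, 6.89 and 7.20 and differed by -0.31, with each value also under the median of its array. Rpl13a had no probe set with a single symbol. Among the measured hosts, Cct6a, a chaperonin subunit gene that holds Snora15, was the 1 called lower, with -1.04, and its snoRNA was at -0.97.

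snoRNAs of 1 host did not share 1 difference. Snhg12 holds 4 of the 56 genes. In CXCR3- innate minus naive Snora16a was at -1.83, Snora44 at -0.38, Snord99 at -0.32 and Snora61 at 0.00. Snora44 read 11.50, 11.15 and 11.53, Snord99 11.80, 11.19 and 11.50, and Snora61 7.83, 7.77 and 7.77. Of the 4, Snora16a alone had a naive value far above both innate values. The host 2410006H16Rik holds Snord49b at -1.65, Snord49a at -1.13 and Snord65 at -0.55. The nucleolin gene Ncl, itself at -0.52, holds Snora75 at -0.56 and Snord82 at -0.34. The protein-coding gene 2410002F23Rik holds Snord88a, equal on all arrays, and Snord88c at 0.33. Snora73a and Snora73b, both inside Snhg3, lay close together at -0.83 and -0.96.

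snoRNA hosts without a known protein are often genes whose transcripts start with a C followed by a run of pyrimidines (C or T), a start known from genes of the translation machinery. The 60 bases around listed starts of some such hosts are given to show which have such a start here and which do not, from RefSeq, GRCm38.p6, 5′ to 3′ on the gene's strand. Each begins 40 bases before the start and ends 20 bases into the transcript, and capitals mark the unbroken run of C and T that holds or touches the start.
Snhg12, holding Snora16a, Snora44, Snora61 and Snord99, chr4:132308638-132308697, + strand: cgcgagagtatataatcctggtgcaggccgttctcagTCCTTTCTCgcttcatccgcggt
2410006H16Rik, holding Snord49a, Snord49b and Snord65, chr11:62602837-62602896, + strand: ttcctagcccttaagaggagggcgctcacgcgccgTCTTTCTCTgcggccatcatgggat
Gm36220, holding Snord104, chr11:106500875-106500934, + strand: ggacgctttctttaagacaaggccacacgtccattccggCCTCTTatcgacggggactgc
Snhg1, holding Snord22, chr19:8723447-8723506, + strand: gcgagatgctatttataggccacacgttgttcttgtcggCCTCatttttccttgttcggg
Gas5, holding Snord47, 1 of 2 listed starts, chr1:161034561-161034620, + strand: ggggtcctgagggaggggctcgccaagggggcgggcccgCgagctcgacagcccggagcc
Gas5, the other listed start, chr1:161035126-161035185, + strand: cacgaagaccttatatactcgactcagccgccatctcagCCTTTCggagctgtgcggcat
Snhg3, holding Snora73a and Snora73b, chr4:132353667-132353726, - strand: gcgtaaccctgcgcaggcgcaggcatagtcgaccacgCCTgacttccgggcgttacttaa
1110038B12Rik, holding Snord52, 1 of 2 listed starts, chr17:34952449-34952508, - strand: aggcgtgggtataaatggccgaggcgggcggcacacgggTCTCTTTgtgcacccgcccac

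Of the starts printed, those of 2410006H16Rik, Gm36220 and 1110038B12Rik and the second of Gas5 have C as the first base and a C or T at each of the next 3. Those of Snhg12, Snhg1 and Snhg3 and the first of Gas5 do not: Snhg12 begins with T, Snhg3 and the first Gas5 start with G, and the run of Snhg1 is shorter. In Snhg12 6 bases of the run lie in the transcript, and in Snhg3 the run ends just before the start. Starts whose first base is C and whose next 3 bases are each C or T were counted. They were 4 of 10 listed starts of 8 noncoding hosts and 5 of 41 listed starts of 37 host genes (12.2%). The noncoding hosts Snhg4 and Snhg6 are not among the 8, and the 37 are part of 49 host genes. Over all 32851 listed starts the share was 3.76%. This counts letters on the gene's own strand at the listed start only, and it was read without reference to the array values. Snord104 itself read 11.11, 10.34 and 11.30. Snord22 read 8.27, 8.04 and 8.82, while its host Snhg1 read 8.91, 8.50 and 9.40, so host and snoRNA were both lowest in CXCR3- innate cells. Snord47 read 10.19, 9.51 and 9.85.

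Transcripts of the proteins that bind or build snoRNAs were measured on the same arrays, and none was called in any comparison. Of the H/ACA proteins, Nop10 read 8.92, 8.32 and 8.69, and Nhp2 read 7.33, 6.77 and 7.12. Dkc1, the pseudouridine synthase, read 7.48, 7.36 and 7.44, and Gar1 was equal on all arrays. The 3 measured C/D core genes, Nop56, Nop58 and Snu13, differed by -0.23, -0.62 and -0.26 in CXCR3- innate minus naive and by 0.31, 0.37 and 0.25 between the innate populations. Over the 7 core genes, CXCR3- innate cells were thus lowest in 6 and equal to the others in 1. Fbl was not among the genes with values.

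Medians over 4 further gene lists lay between -0.31 and 0.17. The 5 measured snoRNP assembly genes had median differences of -0.02 and -0.08 for the CXCR3+ and CXCR3- innate arrays against naive, and 0.02 between the innate arrays. The 7 trimming and capping genes had medians of -0.04, -0.26 and 0.17 in the same 3 comparisons, with Parn, the exonuclease that trims H/ACA ends, at -0.22, -0.23 and 0.02. The 19 genes of RNA polymerase I and ribosomal RNA processing had medians of 0.00, -0.11 and 0.06, and 14 of them were below 0 in CXCR3- innate minus naive. Imp3, of the U3 complex, had the lowest difference there, at -0.78. The 12 spliced noncoding hosts had medians of -0.22, -0.31 and 0.08. Among them Zfas1 at -1.05 and Epb41l4aos at -1.02 were called lower in CXCR3- innate minus naive (16.7%), beside 0.226% of all genes. No gene of these 4 lists was called in the other comparisons.

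Probe sets that the annotation pairs with a snoRNA and another gene, mostly its host, were outside the 56 and are not named. There were 35, which held 20 distinct sets of values, since 16 carried the same values for 1 repeated snoRNA family. Of the 20, 18 were below 0 in CXCR3- innate minus naive, 1 was equal and 1 above, with a median of -0.45 and a range from -1.07 to 0.16. Between the innate populations 17 were above 0 with a median of 0.49. These probe sets were not used to choose the 56 genes, but they sit on the same arrays.

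**Figure D4:**
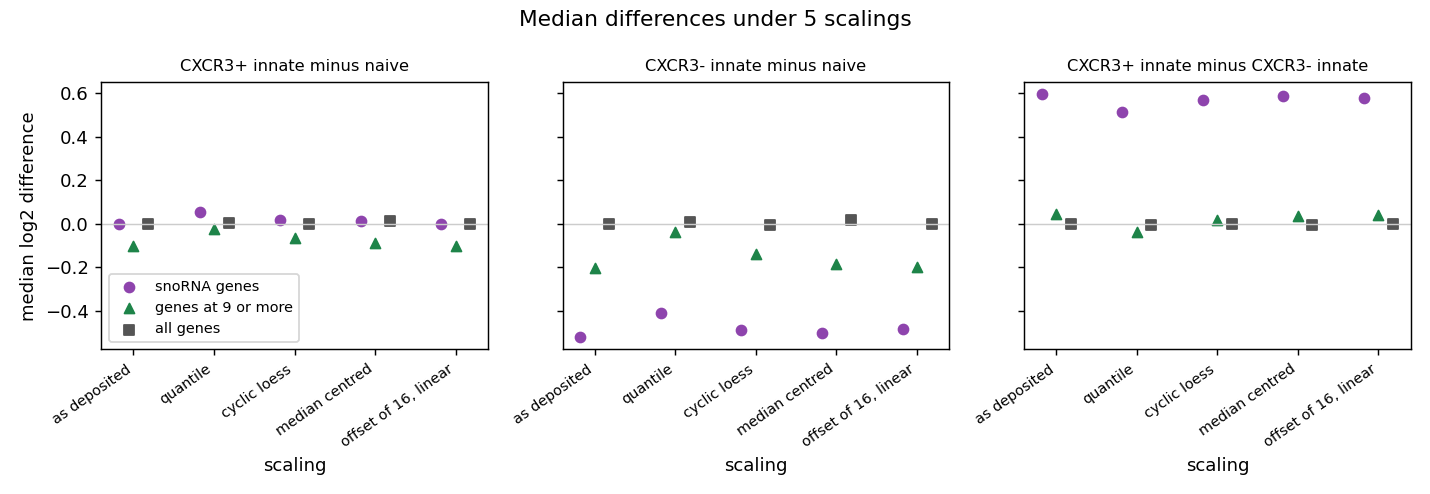
Median difference of log2 values (vertical axis) over the 56 snoRNA genes (purple circles), the 834 genes with a mean of at least 9 (green triangles) and all 10191 genes (grey squares) under 5 scalings, in each of the 3 comparisons. In CXCR3- innate minus naive the snoRNA median lies between -0.52 and -0.41 under all 5, and the median of the bright genes between -0.20 and -0.04.

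Scaling moved the snoRNA medians without turning their direction in the comparisons that involve CXCR3- innate cells. After quantile normalization, which gives the arrays 1 common distribution, the median of genes with a mean of at least 9 went from -0.20 to -0.04 in CXCR3- innate minus naive, and that of the snoRNA genes from -0.52 to -0.41. Under that setting 45 of 56 snoRNA genes were below 0. Between the innate populations the snoRNA median stayed between 0.52 and 0.59 over the 5 scalings. Snora16a, Snora34, Snora69, Snord16a, Snord49a and Snord49b were called lower in CXCR3- innate minus naive under each of them, and Snora33, Snord35a, Snord69 and Snord89 were called higher between the innate populations under each.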

How the data were processed

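RNA of 3 sorted CD8+ T cell populations was measured on 1 Affymetrix array each. The authors deposited log2 values, and the submitters' processing notes name RMA and Affymetrix Expression Console; versions, array model and genome build are not given in the sources used here. The table held 12417 probe sets, of which 10576 had 1 symbol, 1108 several and 733 none. Values of several probe sets of a gene were averaged, which gave 10191 genes. A gene was called when its log2 values differed by at least 1 and the higher one reached the median of its array. With 1 array per group no test was possible, and the number of arrays limits the precision.

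The snoRNA genes, lists and rules were chosen with earlier results of these data known. Named were snoRNA genes that were called, those with the 6 largest differences in each class and comparison, those next to the threshold, those with the highest signals (Snora21, Snora44, Snora74a, Snord89, Snord8 and Snord99), measured genes of the lists and hosts of called genes; other snoRNA genes were named after their values were seen. Signals of different probe sets served to pick the 6 genes of highest signal. They also entered the strata of level, the filter at the array median and the rank correlation with mean level. Such signals depend on the probes as well, which limits these uses. Hosts were matched by span without strand, since the table gives none for snoRNAs. Host starts, and the strata of level, were chosen after the data were seen. The count rule, without its filter on level, was tested on simulated data with a chosen noise and differences above the threshold. Such a run checks the code and cannot give the error of the rule on arrays without replicates. Alternatives were other thresholds, filters, scalings and probe set rules. The scalings used limma 3.58.1 in R 4.3.3, and the rest pandas 2.3.3 and numpy 2.4.6 in Python 3.11.15. Some items are not reported here.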

Additional observations from a re-analysis of the deposited data

How the results depend on the processing

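No paired analysis was possible because each population had 1 array. Under other settings, 96 values of the snoRNA counts and medians stayed within 1.5 times the count or within 0.1 of the median, 12 moved and none turned direction. The 96 include the probe set rules, which could not move these values because each snoRNA gene had a single probe set. With a 1.5-fold threshold 24 snoRNA genes (of 163 among all genes) were lower in CXCR3- innate minus naive, 26 (of 102) higher in CXCR3+ innate minus CXCR3- innate, and 2 (of 71) lower and 1 (of 51) higher in CXCR3+ innate minus naive. With a 3-fold threshold these were 2 of 3, 1 of 2, 0 of 2 and 0 of 3. Quantile normalization gave 5 (of 11) higher between the innate populations and a box H/ACA median of -0.52 in CXCR3- innate minus naive. That median was -0.77 over members above the filter on dim genes and -0.79 over members with unequal values, and the box C/D median was -0.64 over members above the filter. Fewer members entered these last medians. Over all genes, quantile normalization left 9 lower in CXCR3- innate minus naive in place of 23, and the linear offset left 15, so the split of 2 higher to 23 lower calls became 2 to 9 and 2 to 15. Leaving out an array would end a comparison and was not run.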

Other observations

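Of the 11 other short RNAs measured beside the snoRNAs, 7 were called lower in CXCR3- innate than in naive cells and 2 were called higher in CXCR3+ innate than in CXCR3- innate cells. Of all genes 0.226% and 0.147% were called so, and of genes with a mean of at least 9, 1.44% and 1.32%. The 7 include the U3 snoRNA Rnu3a and the guide RNAs Scarna2, Scarna6 and Scarna17. Rnu12, the U12 RNA of the minor spliceosome, read 10.59, 9.20 and 10.81 on the CXCR3+ innate, CXCR3- innate and naive arrays. Rnu11, the U11 RNA of the same spliceosome, read 11.53, 11.38 and 11.38. Scarna6, a guide RNA of Cajal bodies, read 9.41, 8.47 and 9.91, while Scarna8 was equal on all arrays. Rpph1, the RNA of ribonuclease P, read 10.81, 10.74 and 11.44, so both innate arrays were below naive. Rn7sk, a long-lived RNA that holds back transcription elongation, read 13.50, 13.63 and 13.54 and differed by 0.08. The 139 microRNA hairpin genes lay mostly on the other side, with 89 above 0 and 22 below in CXCR3- innate against naive cells, and by the size rule none was called.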
